A study of Bos taurus with 48 samples.

Results

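PRSS2 (ENSBTAG00000021565) and LTBP4 (ENSBTAG00000004757) are 2 of the 24616 bovine genes counted in whole blood of weaned calves. They were chosen because their levels in the same data set Holstein-Friesian (H-F) calves apart from each other as well as from Jersey (J) calves. The difference between breeds, the high and low levels among H-F calves and the range in J calves are therefore given as descriptions, without a test. Blood of 8 H-F and 8 J bull calves was taken into RNA-stabilising tubes on d -14, before milk replacer was gradually withdrawn, on d 1, just after weaning, and on d 8, which gave 48 libraries of poly(A) RNA. All calves were clinically healthy, vaccinated on arrival, housed in groups and fed milk replacer and concentrate until milk was removed on d 0. The H-F calves came from 1 farm and the J calves, which were older on average, from others, so breed, farm of origin and age cannot be told apart. J calves were offered concentrate ad libitum before weaning, and H-F calves a set allowance that the paper says they never used up. The paper also reports greater passive immunity from the dam in J calves. The paper has sires on record for all but 1 calf of each breed, with fewer bulls than calves, so some calves shared a sire. Which bull sired which calf is not given in the sources used here. J calf 85, identified as the calf that the study left out, was kept out of all values below unless it is named, which left 15 calves and 45 libraries. Read counts are given as CPM, counts scaled to a common library size and corrected for library composition, and calves carry the numbers of their labels.

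PRSS2 encodes a trypsinogen, the inactive precursor of the digestive protease trypsin, which acinar cells of the pancreas make and secrete. Enteropeptidase activates it in the gut, and active trypsin cleaves dietary proteins and can also activate protease-activated receptors on cells. Trypsinogen genes of mammals lie within the locus of the T cell receptor beta chain. LTBP4 encodes latent transforming growth factor beta binding protein 4, a protein of the extracellular matrix that binds the latent form of transforming growth factor beta (TGF-beta) and takes part in the assembly of elastic fibres.

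PRSS2 was high in 4 H-F calves, low in 3 and in between in 1 calf alone. Calf 49 had 76.9, 81.0 and 82.6 CPM at d -14, d 1 and d 8. Calf 56 had 66.3, 63.2 and 65.7 CPM. Calf 48 had 60.3, 56.2 and 62.9 CPM. Each of these animals kept almost the same level before, just after and a week after weaning. Calf 20 had 59.0, 59.6 and 59.5 CPM and lay with them. Calf 25 stood alone below these calves, with 25.5, 24.4 and 32.01 CPM. The other 3 H-F calves were lower by a wide margin. Calf 27 had 5.49, 4.64 and 3.89 CPM. Calf 33 had 3.18, 2.89 and 3.80 CPM. Calf 32 had 2.66, 3.07 and 3.19 CPM. No library of the 3 low calves reached the level of any other H-F library. The median of the 8 H-F calves, 42.2 CPM on d -14, 40.3 CPM on d 1 and 45.7 CPM on d 8, fell between the levels and was the level of no calf.

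Ordered by the mean log2 CPM of their 3 libraries, H-F calves showed the largest step of PRSS2 between calves 27 and 25, where the level rose 5.79-fold (2.53 on the log2 scale). The next largest step, of 2.19-fold (1.13), lay between calves 25 and 20, and the other steps were at most 1.41-fold. The 3 calves below the largest step are called the lower calves of PRSS2 and the 5 above it the upper calves. On the scale of log2 CPM with a prior count of 2, the lowest library of the upper calves was 4.41-fold above the highest library of the lower calves. PRSS2 counts were 1612 to 3006 in the 4 highest calves, 809 to 1021 in calf 25 and 85 to 197 in the 3 lower calves, so counting error was small beside the steps. The lowest count, 85 in calf 32 on d -14, had an exact Poisson 95% interval of 2.12 to 3.28 CPM. Such intervals cover counting error only.

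J calves formed a single low range of PRSS2. On d -14 they had 0.415 CPM at the lowest, a median of 1.17 CPM and 1.46 CPM at the highest. On d 1 the lowest, median and highest were 0.466, 0.948 and 1.70 CPM. On d 8 they were 0.609, 1.17 and 1.63 CPM. No J library reached the lowest H-F library: the lower H-F calves, at 2.66 to 5.49 CPM, began 1.56-fold above the highest J library and had a median 3.103 times that of J. The medians of the 4 highest H-F calves and of calf 25 were 61.3 and 24.8 times the J median. Counts of PRSS2 in J libraries were 14 to 62, and the interval of the highest J library (calf 7 on d 1) was 1.30 to 2.18 CPM, which overlaps the interval of the lowest H-F library. Among J calves, calf 77 was lowest on each of the 3 days, at 0.415, 0.466 and 0.609 CPM.

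**Figure D1:**
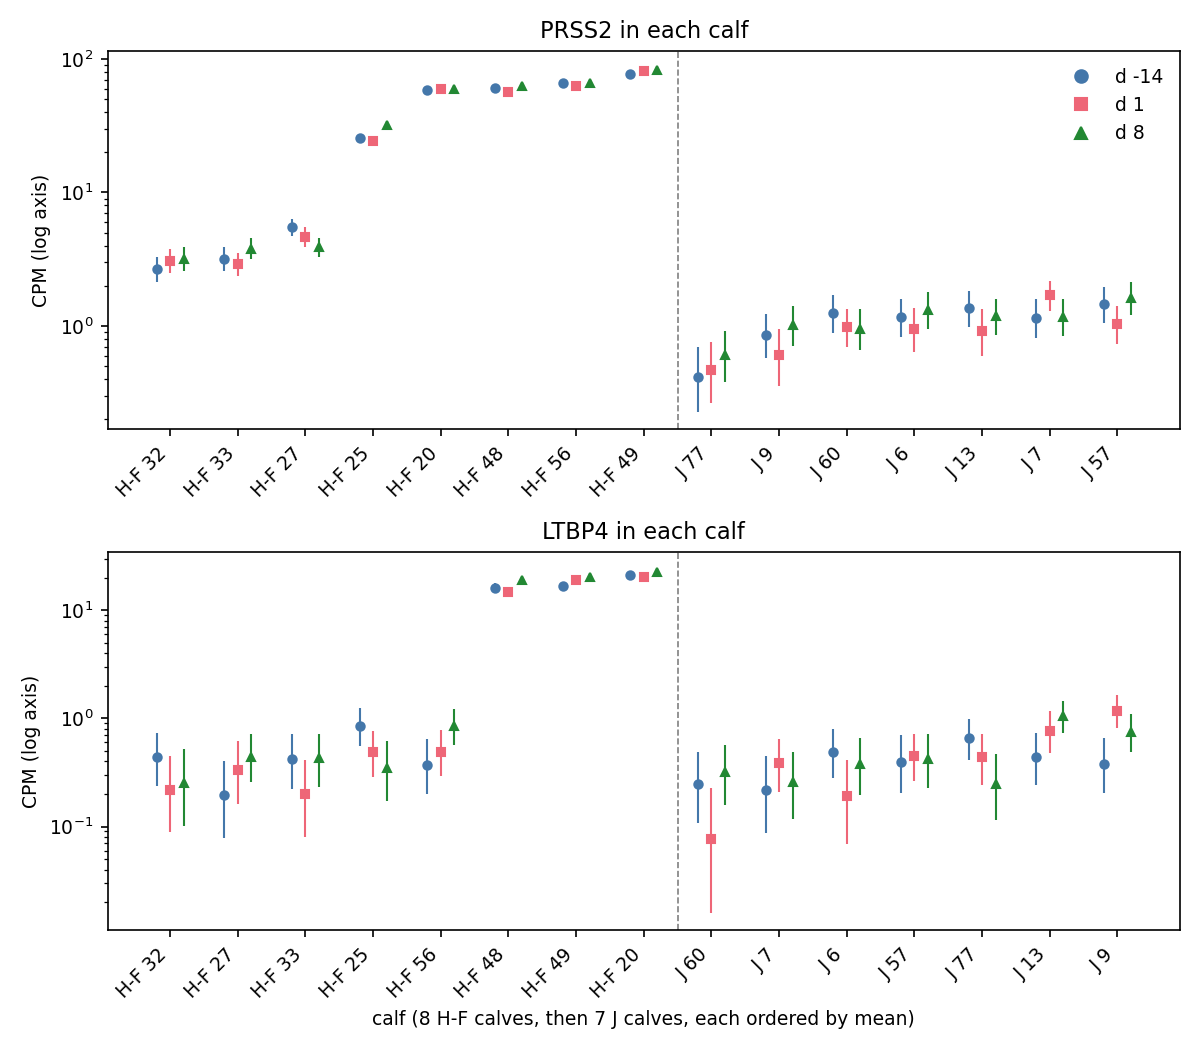
PRSS2 (top) and LTBP4 (bottom) in CPM, on a log axis, for each H-F calf and then each J calf, ordered by calf mean within breed. Points are the libraries of d -14, d 1 and d 8 and bars are exact Poisson 95% intervals of the counts. PRSS2 stands at 56.2 to 82.6 CPM in 4 H-F calves, 24.4 to 32.01 CPM in 1, and 2.66 to 5.49 CPM in 3, above all J libraries, whereas LTBP4 is at 14.6 to 22.4 CPM in 3 H-F calves and within the J range in the other 5.

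LTBP4 divided the H-F calves differently, into 3 high and 5 low calves. Calf 20 had 21.2, 20.3 and 22.4 CPM at d -14, d 1 and d 8. Calf 49 had 16.7, 19.0 and 20.4 CPM. Calf 48 had 16.2, 14.6 and 18.9 CPM. These 3 calves lay close together and were far from the others on every day. Calf 56, which was among the highest for PRSS2, had 0.373, 0.492 and 0.847 CPM of LTBP4. Calf 25 had 0.850, 0.485 and 0.345 CPM. The remaining calves 27, 32 and 33, the lower calves of PRSS2, had between 0.195 and 0.444 CPM in their 9 libraries. The step between calves 56 and 48 was 27.5-fold (4.78 on the log2 scale), and on the same scale the lowest library of the high calves was 16.1-fold above the highest library of the low calves. LTBP4 counts were 499 to 740 in the high calves and 7 to 30 in the low ones.

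The 5 low H-F calves could not be set apart from J calves by LTBP4. They had 0.195 to 0.850 CPM (median 0.422) against 0.0772 to 1.17 CPM (median 0.397) in J, a ratio of medians of 1.06. On d -14 the lowest, median and highest J calves had 0.217, 0.397 and 0.652 CPM. On d 1 they had 0.0772, 0.436 and 1.17 CPM. On d 8 they had 0.249, 0.377 and 1.04 CPM. These values rest on 3 to 37 counts per library. The lowest, 3 counts in calf 60 on d 1, had an interval of 0.0159 to 0.225 CPM. Only large differences among the low calves of either breed therefore exceeded counting error at this depth. The interval of calf 60 lay below that of calf 9 on the same day, 0.816 to 1.63 CPM. Among the low H-F calves on d -14, calf 27 (0.0785 to 0.402 CPM) lay below calf 25 (0.560 to 1.24 CPM). On d 8 their order was reversed, at 0.444 CPM in calf 27 and 0.345 CPM in calf 25, with overlapping intervals. The median of the 3 high H-F calves was 47.7 times the J median, and their lowest library was 12.5-fold above the highest J library in CPM.

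The 2 genes overlapped in the calves they marked but did not mark the same calves. Calves 20, 48 and 49 were on the upper side for both genes, calves 27, 32 and 33 on the lower side for both, and calves 25 and 56 on the upper side for PRSS2 and the lower side for LTBP4. Of the H-F calves, 0 were on the upper side for LTBP4 and the lower side for PRSS2. Calf 56 carried the contrast furthest, with 65.1 CPM of PRSS2 and 0.571 CPM of LTBP4 on average over the days. With 8 calves, how often the 2 genes would part the calves alike was not tested.

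**Figure D2:**
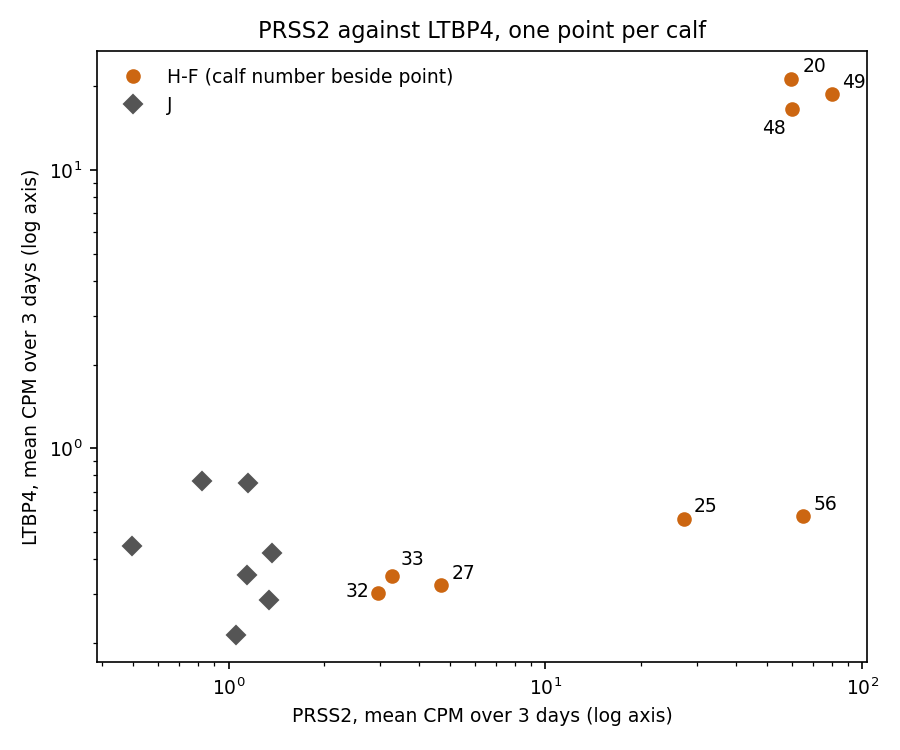
Mean CPM over 3 days of PRSS2 (x axis) and LTBP4 (y axis), both log axes, with 1 point per calf (8 H-F, 7 J). H-F calves 20, 48 and 49 are high in both genes, calves 25 and 56 in PRSS2 alone, and calves 27, 32 and 33 lie left of these but right of all J calves.

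Most calves with high counts kept nearly the same level over the 3 days. From its lowest to its highest day PRSS2 moved 1.01-fold in calf 20, 1.05-fold in calf 56, 1.07-fold in calf 49 and 1.12-fold in calf 48. In calf 25 it moved 1.31-fold and in the 3 lower calves 1.201- to 1.41-fold. The move exceeded counting error in calf 25 (Poisson intervals of 22.8 to 26.1 CPM on d 1 and 30.1 to 34.0 CPM on d 8). It did so too in calf 27 (4.75 to 6.32 CPM on d -14 and 3.29 to 4.57 CPM on d 8). Intervals of calf 48 were likewise apart (53.8 to 58.7 CPM on d 1 and 60.3 to 65.7 CPM on d 8). J calves moved 1.30- to 1.69-fold. LTBP4 moved 1.10- to 1.29-fold in the 3 high calves, most in calf 48, 1.997- to 2.46-fold in the 5 low H-F calves and 1.13- to 4.12-fold in J calves, where few reads were counted. No calf crossed from one level to another between days in either gene.

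Set beside the other genes in H-F calves, both stood out for the spread between calves, and LTBP4, whose low calves had few counts, also for the spread within them. The SD between calf means of log2 CPM was 2.09 for PRSS2, the 23rd largest of the 12677 genes kept, and 2.80 for LTBP4, the 10th largest, against a median of 0.140 over all genes. Within calves, over the days, the SD was 0.147 for PRSS2, against a median of 0.142, and 0.420 for LTBP4, the 455th largest. In J calves the between-calf SD was 0.475 for PRSS2 and 0.590 for LTBP4 (median of all genes 0.137), and the within-calf SD was 0.284 and 0.576 (median 0.131). The spread between H-F calves was part of what chose the 2 genes, so their ranks are given without a test.

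**Figure D3:**
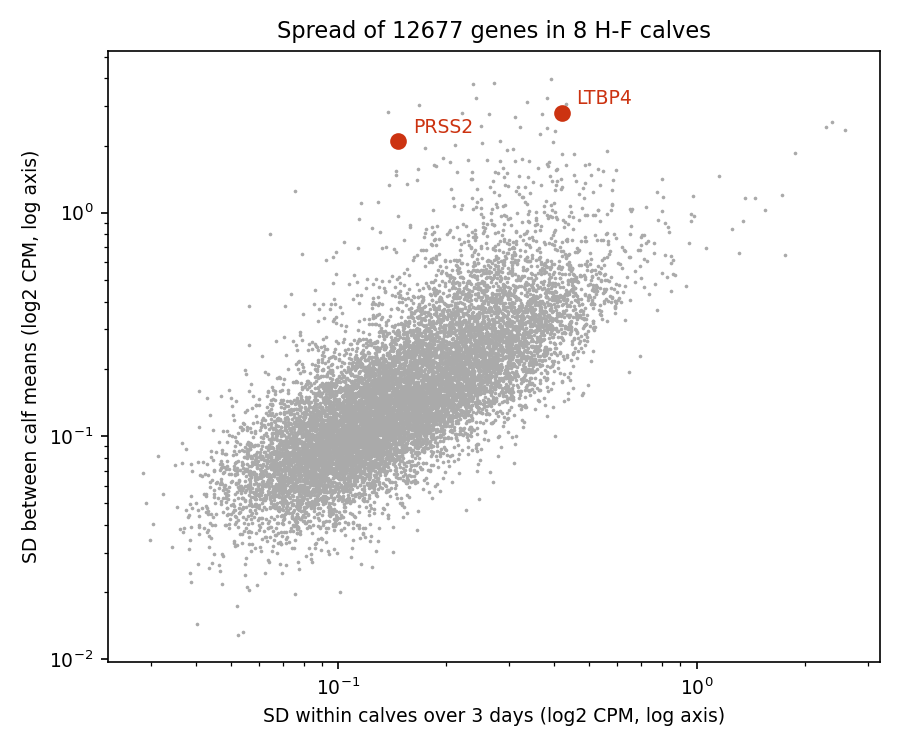
SD between calf means (y axis) against SD within calves over 3 days (x axis), both in log2 CPM on log axes, for 12677 genes in 8 H-F calves. PRSS2 lies at 2.09 between and 0.147 within calves and LTBP4 at 2.80 and 0.420, above most genes of like spread within calves.

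Whether either gene changed between the days around weaning was tested within each breed. The test was the quasi-likelihood (QL) test of edgeR, fitted to all 12677 genes with Benjamini-Hochberg adjustment. All calves were weaned, so weaning cannot be told apart from growing age or sampling date. A gene was called when its adjusted p was under 0.1, a false discovery rate of 10%, and its level moved at least 1.5-fold. PRSS2 and LTBP4 were called in 0 of the 3 contrasts of days in H-F calves and 0 of 3 in J calves, with calf as a block or without it, and their unadjusted p was above 0.05 in each. The share of all genes called was low as well. With calf as a block it was 0.252% between d -14 and d 1 and 1.08% between d -14 and d 8 for H-F, and for J it was 0.0552% and 0.205%. Without the block it was 0.071% between d -14 and d 8 in H-F calves and 0% in the other contrasts of days. Between d 1 and d 8 it was 0% in both breeds in either fit.

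The 3 libraries of a calf share the animal, and a fit without calf put the distance between high and low calves into the error of a day. For PRSS2 the biological coefficient of variation was 0.843 without the block and 0.0852 with it. For LTBP4 it was 1.22 and 0.213, against 0.185 and 0.102 over all genes. With the block, PRSS2 in H-F calves differed by -0.04 on the log2 scale between d -14 and d 1 (SE 0.0749, edgeR QL adjusted p = 0.858), by 0.06 between d -14 and d 8 (SE 0.0748, adjusted p = 0.627) and by 0.11 between d 1 and d 8 (SE 0.0749, adjusted p = 0.637). The 95% intervals of these differences lay between -0.20 and 0.26, which leaves out a 1.5-fold change in either direction. LTBP4 in H-F calves differed by -0.11, 0.16 and 0.27 in the same order (SE 0.187, 0.186 and 0.185; edgeR QL adjusted p = 0.860, 0.622 and 0.637), with intervals between -0.49 and 0.65.

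In J calves the differences were estimated less closely. PRSS2 differed by -0.19, 0.05 and 0.25 in the same order (SE 0.138, 0.134 and 0.136; edgeR QL adjusted p = 0.660, 0.987 and 1.000). LTBP4 differed by 0.21, 0.22 and 0.01 (SE 0.297, 0.297 and 0.283; adjusted p = 0.824, 0.945 and 1.000), with intervals that reached 0.83. Between d 1 and d 8, PRSS2 was higher on d 8 in 6 of 8 H-F and 5 of 7 J calves, and LTBP4 in 7 of 8 H-F and 3 of 7 J calves. The difference between the breeds in the change from d -14 was -0.15 for PRSS2 on d 1 and -0.01 on d 8 (SE 0.157 and 0.156; edgeR QL adjusted p = 0.946 and 0.987, calf as a block). For LTBP4 it was 0.32 and 0.06 (SE 0.351 and 0.345; adjusted p = 0.947 and 0.969). Of all genes, 0% and 0.0158% were called in these 2 interactions, for which no fold threshold was set.

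**Figure D4:**
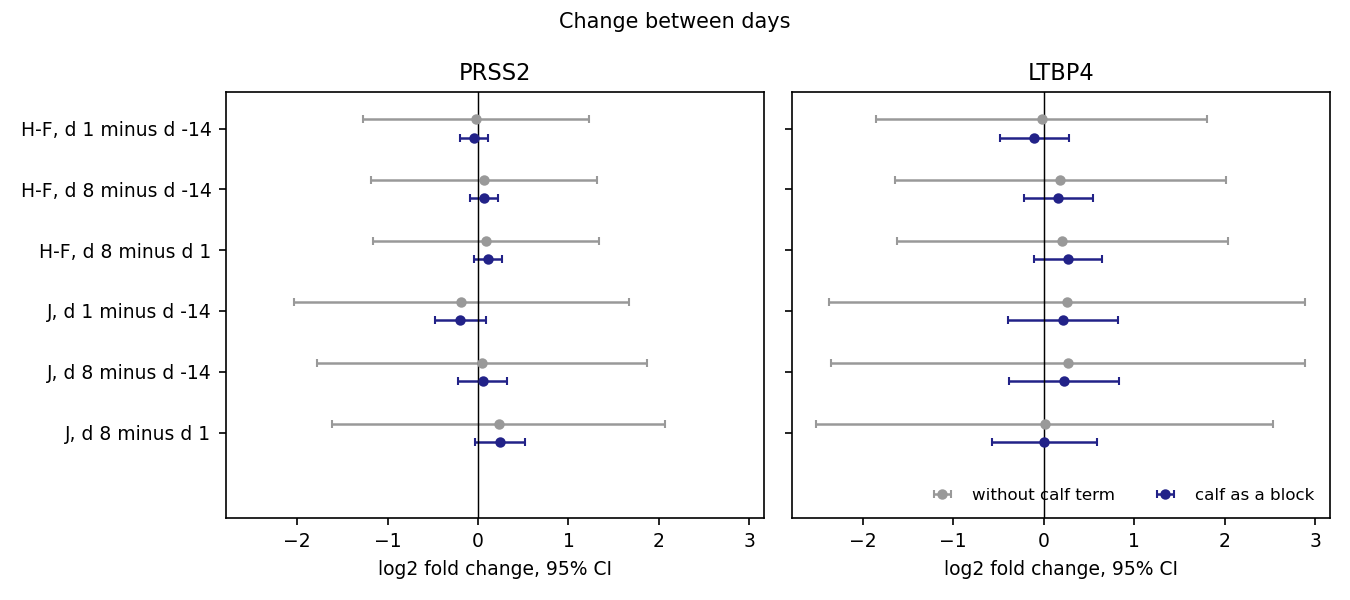
Log2 fold change between days (x axis) of PRSS2 (left) and LTBP4 (right) for each contrast of days in H-F and J calves. Points are estimates and bars 95% intervals of the edgeR fit without a calf term (grey) and with calf as a block (blue). All intervals include 0, and those with the block are several times narrower, within -0.20 to 0.26 for PRSS2 in H-F calves.

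Between breeds, the fitted log2 fold change of J relative to H-F calves was -5.10, -5.27 and -5.12 for PRSS2 at d -14, d 1 and d 8 and -4.11, -3.83 and -4.02 for LTBP4. With limma-voom they were smaller, -4.42 to -4.24 for PRSS2 and -2.13 to -1.96 for LTBP4. These contrasts chose the 2 genes. For scale, 2.52%, 1.84% and 1.93% of the genes kept were called lower in J calves on the 3 days, and 4.1%, 3.73% and 3.13% in either direction. A mean over H-F calves does not describe any of them. The ratio of a single H-F calf to the J median of the day was 2.28 at the lowest (calf 32) and 85.4 at the highest (calf 49) for PRSS2. For LTBP4 it was 33.5 to 59.3 in the 3 high calves and 0.459 to 2.24 in the others.

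Genes that parted the H-F calves as PRSS2 did were sought among the other 12676 genes kept. A gene was counted when all libraries of the 5 upper calves lay above, or all below, all libraries of the 3 lower calves. In the direction of PRSS2 there were 2 such genes (0.0158%) and in the opposite direction 3 (0.0237%). How many such genes a division of these calves into 5 and 3 gives by itself was not tested. With any 1 H-F calf left out there were 5 to 56 and 4 to 45 genes, since fewer libraries had to stay apart, and the most came without calf 27. Only 1 gene had a gap of at least 1 on the log2 scale between the sides, against 2.14 for PRSS2 itself.

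That gene was ENSBTAG00000021077, for which no symbol is given in the sources used here. Its gap was 1.05. The upper calves had 4.99 to 27.3 CPM and the lower calves 0.250 to 2.37 CPM, with calf 49 highest on average at 25.5 CPM and calf 32 lowest at 0.443 CPM, as for PRSS2. Calf 25, intermediate for PRSS2, was second highest at 12.2 CPM. J calves had 9.28 to 36.0 CPM of this gene, overlapping the upper H-F calves and reaching above them, whereas their PRSS2 was below that of the lower H-F calves.

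BTLA, an inhibitory receptor of B and T lymphocytes, was the other gene in the direction of PRSS2. It had 16.8 to 27.6 CPM in the upper and 10.7 to 16.1 CPM in the lower calves, a gap of 0.06 on the log2 scale, and 15.5 to 54.3 CPM in J calves. Calf 27 had the highest BTLA of the lower calves, 14.3 CPM on average, and calf 48 the lowest of the upper calves, 18.0 CPM. BTLA was higher in J than in H-F calves on each day, by 0.74, 0.65 and 0.81 on the log2 scale (SE 0.243 on each day; edgeR QL adjusted p = 0.0420, 0.0717 and 0.0363), and was called on all 3. The breed difference of BTLA thus ran opposite to that of PRSS2.

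In the opposite direction were CD209 and CD1A, both genes of antigen-presenting cells. CD209, a C-type lectin receptor of dendritic cells and macrophages, had 0.447 to 2.44 CPM in the upper and 2.55 to 9.91 CPM in the lower calves. CD1A, which presents lipid antigens, had 0.138 to 2.20 CPM in the upper and 2.30 to 8.92 CPM in the lower calves. The sides just met in both genes, with gaps of 0.06. Calf 32 was highest for CD209 at 8.26 CPM on average and calf 33 for CD1A at 5.42 CPM. J calves lay with the upper H-F calves, at 0.409 to 2.81 CPM of CD209 and 0.0791 to 2.16 CPM of CD1A, except that 1 library of calf 77 reached the lower calves for CD209. CD209 had log2 fold changes of -1.19, -1.45 and -1.87 in J relative to H-F calves (SE 0.491, 0.502 and 0.528; edgeR QL adjusted p = 0.108, 0.0546 and 0.0268), called on d 1 and d 8. CD1A had -1.90, -1.37 and -1.67 (SE 0.663, 0.668 and 0.685; adjusted p = 0.0567, 0.173 and 0.124), called on d -14. The third gene, ENSBTAG00000034295, had 24.1 to 42.6 CPM in the upper and 43.2 to 67.1 CPM in the lower calves.

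The division of LTBP4 was shared by 7 genes in its own direction (0.0552%) and 3 in the opposite direction (0.0237%), none with a gap of 1 on the log2 scale, against 4.01 for LTBP4 itself. How many such genes a division into 3 and 5 calves gives by itself was not tested on these data. In simulated data, whose spread between calves was set in advance, 6 genes without a planted division shared that of calves 20, 48 and 49, in the same direction. Leaving out any 1 H-F calf gave 9 to 36 and 6 to 21 genes, most without calf 20. The largest gap in the direction of LTBP4, 0.74, was that of ENSBTAG00000046161, which has no symbol in the sources used here. Calves 20, 48 and 49 had 875 to 1415 CPM of this gene, against 194 to 524 CPM in the 5 others. J calves spread over both sides, with 143 to 1071 CPM, the highest in calves 7 and 13. The gene next in this direction, ENSBTAG00000002655, had 22.1 to 26.3 CPM in the 3 high calves and 8.05 to 21.0 CPM in the other H-F calves. J calves had 8.62 to 13.9 CPM of it, below the high H-F calves, and its breed difference was called on d 1 (log2 fold change -0.61, SE 0.245, edgeR QL adjusted p = 0.0979). The other 5 genes had gaps of at most 0.06.

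FABP2, a fatty acid binding protein of the intestinal epithelium, had the largest gap of the genes opposite to LTBP4, 0.40. Calf 20, the highest for LTBP4, had the lowest FABP2, at 0.154 CPM on average. Calves 48 and 49 had 0.660 and 0.531 CPM. These values rest on few reads, 3 to 8 per library in calf 20, 18 to 25 in calf 48 and 16 to 23 in calf 49. The 5 other H-F calves had 1.09 to 3.81 CPM in their libraries, with calf 32 highest. J calves, at 0.310 to 0.913 CPM, lay below all 5 although their LTBP4 was as low. FABP2 had log2 fold changes of -1.14, -1.19 and -1.26 in J relative to H-F calves (SE 0.486, 0.484 and 0.490; edgeR QL adjusted p = 0.122, 0.0996 and 0.105) and was called on d 1. Next was ENSBTAG00000015860, with 3.97 to 4.98 CPM in the high and 5.72 to 11.3 CPM in the low calves of LTBP4. The third gene, which has no symbol either, had 74.2 to 108 CPM and 114 to 202 CPM. BTLA, CD209, CD1A and FABP2 could be named because the study's lists of genes that differed between breeds hold them, so their breed differences are not independent of the naming.

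**Figure D5:**
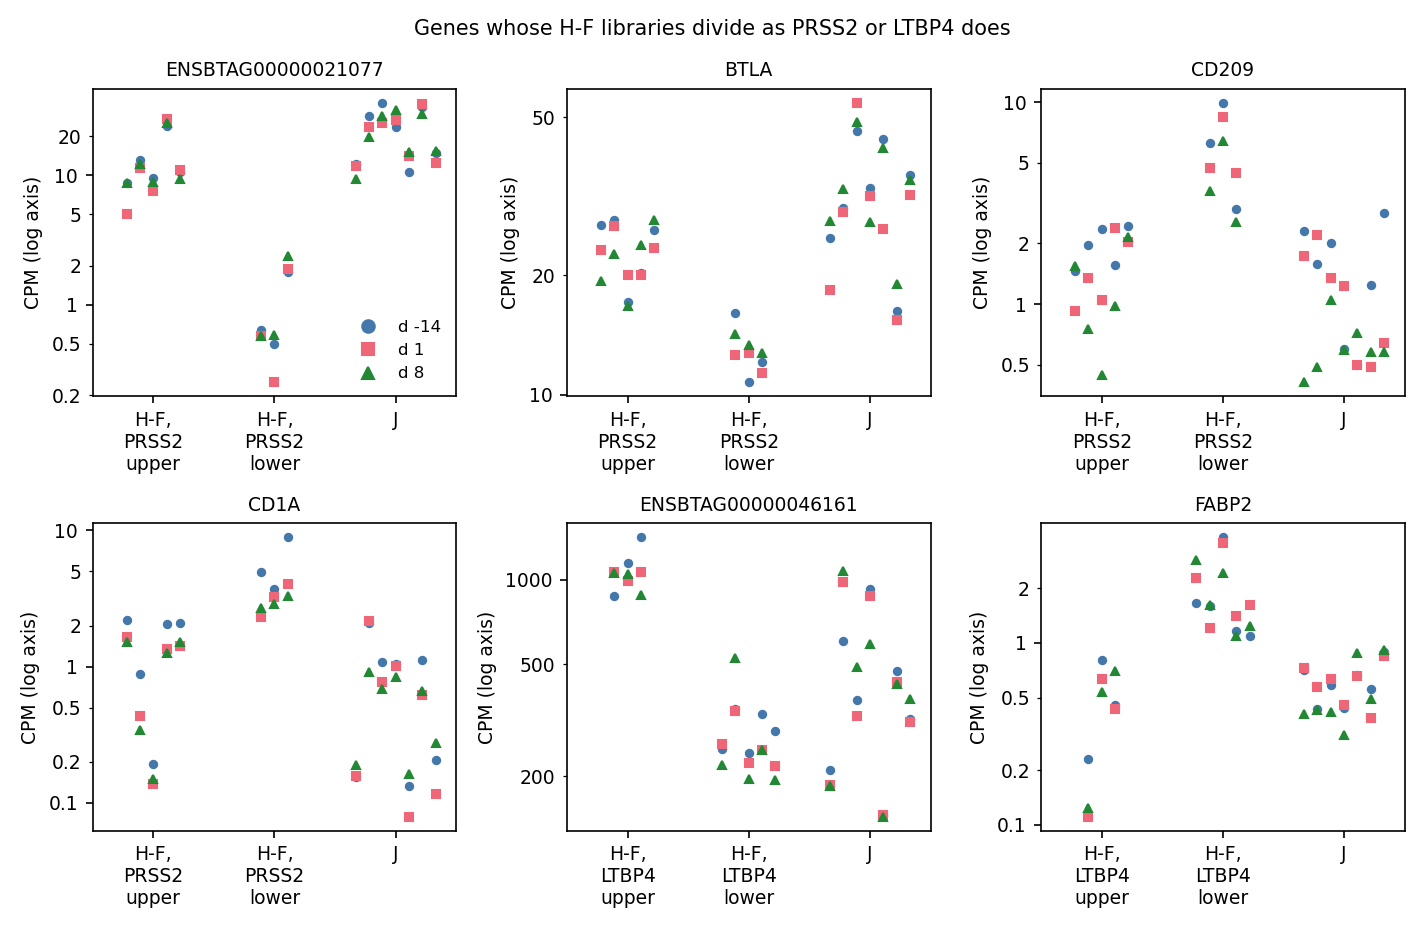
CPM on log axes of 6 genes in the H-F calves of the upper and lower side of PRSS2 (first 4 panels) or LTBP4 (last 2) and in 7 J calves. Each column of points is 1 calf and each point 1 library of d -14, d 1 or d 8. The sides do not overlap in H-F calves, by the way the genes were picked, and J calves lie with the upper calves of PRSS2 for CD1A and for most libraries of CD209, reach above them for BTLA (up to 54.3 CPM), and across both sides of LTBP4 for ENSBTAG00000046161.

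J calves did not take part in the division, so the relation of these genes to PRSS2 or LTBP4 was tested in them. Over the means of 7 J calves, BTLA had r = -0.27 with PRSS2 (rho = -0.14; exact permutation p = 0.528 and 0.783, two-sided), and CD209 r = -0.35 (rho = -0.29; exact permutation p = 0.478 and 0.556). Without the 2 calves farthest from the median of PRSS2, r was 0.84 and -0.03. ENSBTAG00000021077 had r = 0.07 and CD1A r = 0.22 with PRSS2, and FABP2 r = -0.04 and ENSBTAG00000046161 r = 0.06 with LTBP4. The strongest of the relations was that of LTBP4 with a gene without a symbol that shared its direction, with r = 0.73 (rho = 0.86; exact permutation p = 0.0599 and 0.0238, adjusted 0.779 and 0.310), and r = 0.74 without the 2 calves farthest from the median. Of the 13 relations tested, 0 had an adjusted p under 0.05, and the smallest adjusted exact permutation p was 0.779 for r and 0.310 for rho. PRSS2 and LTBP4 spread less between J calves (SD 0.475 and 0.590) than between H-F calves (2.09 and 2.80), though more than the median gene in J (0.137). Their counts in J calves were low, which limits what 7 calves can show.

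In the reference list of bovine genes (RefSeq, ARS-UCD2.0), which was used for the order of genes only, PRSS2 is on chromosome 4 within the spans of LOC509513, also named TCRB, and LOC100300510. V segments, a C region of the T cell receptor beta locus and EPHB6 are its neighbours. LTBP4 is on chromosome 18, between SHKBP1 and NUMBL, with SPTBN4 and BLVRB before and COQ8B and LOC112442317 after. Of the 14 neighbours, only NUMBL (ENSBTAG00000019461), an adaptor protein related to Numb, could be matched to the counts. The match came through the study's lists of genes that differed between breeds, so the breed difference of NUMBL is not independent of it. H-F calves with high LTBP4 had 4.47 to 7.54 CPM of NUMBL and those with low LTBP4 4.72 to 9.88 CPM, so the sides overlapped. J calves had 6.27 to 17.0 CPM. NUMBL was higher in J by 0.70, 0.93 and 0.53 on the log2 scale at d -14, d 1 and d 8 (edgeR QL adjusted p = 0.0169, 0.00264 and 0.0803) and was called on d -14 and d 1, the reverse of the direction of LTBP4.

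Few other genes of either pathway could be followed, because identifiers were paired with symbols only in the study's lists of genes that differed between breeds. A match is therefore itself chosen by the breed difference. Of 24 genes for trypsins, their inhibitors and their receptors 3 were matched, namely PRSS2, A2M and F2RL2, and of 38 genes for latent TGF-beta and elastic fibres 3, namely LTBP4, THBS1 and FBLN2. A2M, a broad inhibitor of proteases, had 281 to 682 CPM in H-F and 204 to 435 CPM in J calves, and log2 fold changes of -0.60, -0.47 and -0.49 (edgeR QL adjusted p = 0.00845, 0.0342 and 0.0369), past the fold threshold on d -14. F2RL2, a protease-activated receptor, had -0.63, -0.47 and -0.47 (adjusted p = 0.0902, 0.211 and 0.236), called on d -14. Of the matrix genes, FBLN2, a fibulin that binds elastic fibre components, was higher in J on all 3 days, by 1.19, 0.85 and 0.94 (adjusted p = 0.00407, 0.0285 and 0.0215), opposite in direction to LTBP4. THBS1, which can activate latent TGF-beta, had -0.50, -0.85 and -0.97 (adjusted p = 0.305, 0.0648 and 0.0491) and was called on d 1 and d 8. None of these 4 genes parted the H-F calves as PRSS2 or LTBP4 did.

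Markers of cell types were compared over the same divisions, as far as they could be matched. In whole blood, fewer cells of a type and less RNA per cell cannot be told apart. The 3 matched of 5 platelet markers (PF4, PPBP and GP9) summed to 238 to 793 CPM in the upper and 228 to 824 CPM in the lower calves of PRSS2, and to 68.6 to 356 CPM in J. For LTBP4 the platelet sums were 324 to 793 CPM in the high and 228 to 824 CPM in the low calves. CXCR2 of neutrophils, NCR1 of natural killer (NK) cells, and CDH5 and VWF of endothelium also overlapped between the sides of both genes. None of these markers was at 0 in any library. No marker of T cells, monocytes, red cells, pancreatic acinar cells or fibroblasts could be matched, so the part of such cells or of their RNA in the levels of PRSS2 and LTBP4 was not tested.

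Reads were assigned to PRSS2 only where they mapped to 1 place, and the reference list also holds PRSS1, another trypsinogen gene, on chromosome 4. The libraries were made with a kit that does not mark strand, so reads of PRSS2 and of transcripts that run across it cannot be told apart. Which bases the counted reads covered was not analysed here, nor were variants of either gene in the calves.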

How the data were processed

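Whole blood RNA of 16 calves on 3 days was sequenced as paired-end reads in 48 libraries. The authors checked reads with FastQC 0.10.0, used STAR to place them on UMD3.1, retained those with a unique position and under 2 mismatches, and summed them over Ensembl genes with HTSeq in union mode. The deposited values are raw counts for 24616 genes and 92 spike-ins. For STAR and HTSeq, no version is given in the sources used here.

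Spike-ins were left out (0.174 to 0.322% of counts), and genes above 1 CPM in at least 8 libraries were kept (12677). J calf 85 was left out because the mean log2 CPM recomputed without it differed least from that in the study's gene lists (root mean square difference 0.00317 against 0.0512 for the next calf). The other 45 libraries held 28088019 to 39095624 counts; at about 1 CPM a count still has a wide interval, as given beside the values. The main test was the QL test of edgeR 4.0.16 in R 4.3.3, with TMM factors and 6 group means. A call needed an adjusted p under 0.1 and, except for interactions, a log2 fold change of at least 0.585. Intervals for single libraries are exact Poisson at 95%. Log2 CPM had a prior count of 2. Each calf was sampled on every day. Its libraries deviated together from the breed and day means (r = 0.404 to 0.846 within a calf, -0.577 to 0.298 between calves), so calf numbers pair the samples.

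Each H-F division was made at the largest gap of calf means. The genes named were PRSS2 and LTBP4, up to 5 genes per direction with the largest gap for each division, 3 reference neighbours on each side, and list genes called between breeds on all days. Of the genes so chosen that have no symbol, 4 are summarised only. F2RL1, SPINK1, SERPINA1, LTBP1, LTBP3 and TGFB1 were to be named too but could not be matched to an identifier, and the matched list genes are all given. Exact permutation tests went through all pairings with numpy 2.4.6, with ranks from scipy 1.17.1, in Python 3.11.15. PRSS2 and LTBP4, the lists and the tests were chosen with earlier results of these data known. The alternatives were calf as a block, DESeq2 1.42.0, limma-voom (limma 3.58.1), no filter on low counts, size factors by relative log expression (RLE), all 16 calves, and leaving out calves singly. The procedure was tested on simulated data. The values of 1 of the marker lists are not reported here. No sequences were printed, since none were held by the sources used here.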

Additional observations from a re-analysis of the deposited data

Results flagged for a closer look

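J calf 85 was outside all comparisons of the report, and its libraries hold reads of both genes above the limit of 3 counts that a count of 0 allows. PRSS2 was at 1.00, 0.628 and 0.774 CPM at the d -14, d 1 and d 8 samplings, and LTBP4 at 0.767, 0.406 and 0.863 CPM. These lay within the range of the other 7 J calves over all days, although its LTBP4 at d -14 was above the highest of them on that day (0.652 CPM). In no breed and day was the highest or lowest calf of PRSS2 or LTBP4 set apart by Dixon's criterion, which tests single values and not levels shared by several calves.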

How the results depend on the processing

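PRSS2 and LTBP4 were not called in any contrast of days or interaction in 21 alternative fits. Each gave 16 results, 336 values in all, with adjusted p of 0.622 or more. Calf as a replicate block changed no call for them. Signs turned only for small differences. LTBP4 in J calves became -0.029 between d 1 and d 8 with DESeq2 and -0.051 between d -14 and d 1 with limma-voom, and the PRSS2 interaction on d 8 became 0.024 with limma-voom. With 1 calf left out, the change of LTBP4 to d 1 in H-F calves ranged from -0.12 to 0.025, and in J calves LTBP4 ranged from -0.11 to 0.45 between d -14 and d 1, -0.014 to 0.54 between d -14 and d 8 and -0.16 to 0.24 between d 1 and d 8. Its interactions ranged from -0.091 to 0.47 on d 1 and -0.19 to 0.36 on d 8, and that of PRSS2 on d 8 from -0.057 to 0.056. The cause was not tested. With limma-voom the breed differences were smaller, at -4.26, -4.42 and -4.24 for PRSS2 and -2.13, -1.96 and -2.10 for LTBP4. Without 1 calf they lay between -5.47 and -4.87 and between -4.32 and -3.38. On a single day more genes shared a division, since fewer libraries had to stay apart. For PRSS2 there were 127 (d -14), 375 (d 1) and 214 (d 8) in its direction and 147, 406 and 188 in the opposite one. For LTBP4 there were 232, 258 and 192, and 189, 141 and 167. Over all 3 days a gap of at least 1 left 1 and 0 genes for PRSS2 and 0 and 0 for LTBP4, and on d -14 or d 1 alone 1 gene in the direction of LTBP4. With 1 calf left out there were 5 to 56 and 4 to 45 for PRSS2, and 9 to 36 and 6 to 21 for LTBP4. RLE factors or no filter moved these counts by at most 2. Adjusted p under 0.05 was reached by 0 of 13 relations in J calves in every setting. Values of LTBP4 below 1 CPM are limited by depth.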
